A study of Mus musculus with 8 samples.

Results

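Cytochrome P450 enzymes other than those of vitamin D metabolism were followed across whole-kidney RNA-Seq of 4 control and 4 SIK mutant mice. Members were the protein-coding genes of GENCODE M21 named Cyp followed by family number, letter and number, with a mean of at least 10 expected counts over the 8 kidneys. *Cyp27b1*, *Cyp24a1* and *Cyp2r1*, the vitamin D enzymes that the study is about, were left out. Of 92 such genes, 33 were members, out of 55401 genes listed for each kidney. A further 34 had some counts but fell under the minimum, and 25 had 0 counts in every kidney. The member nearest the minimum was *Cyp46a1*, with a mean of 14.38 counts, and the highest gene outside it was *Cyp2j7*, with 9.75. All 33 members passed the filter on low counts used for testing.

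The controls were labelled SIK1f/f;SIK2f/f,SIK3f/f, that is, with floxed genes of salt-inducible kinases (SIKs) and no Cre recombinase. The mutants carried the same floxed alleles with Six2-Cre, which is active in nephron progenitors and therefore in the tubule cells that come from them, but not in stromal or blood cells of a whole kidney. The study's text describes mutants that kept an intact *Sik1* allele, whereas the labels give floxed *Sik1* on both chromosomes, so the group is called SIK mutant here. Sex, age and litter of each mouse are not in the labels.

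P450 enzymes are heme proteins that insert an oxygen atom into their substrate, using electrons passed on by P450 reductase in the endoplasmic reticulum or by ferredoxin in mitochondria. In kidney tubules, enzymes of the Cyp2c and Cyp2j subfamilies turn arachidonic acid into epoxides, and Cyp4a and Cyp4f enzymes hydroxylate the far end of fatty acids. Both products act on vascular tone and on salt transport. The mouse kidney is also a textbook tissue for P450 genes whose level follows androgen.

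Libraries held 10179648 to 10925100 expected counts, which places the smallest level taken as detectable, 3 counts, at 0.263 to 0.304 CPM (counts scaled to a common library size with TMM factors). Control 3 and control 4 had at most 0.175 CPM summed over *Uty*, *Kdm5d*, *Eif2s3y* and *Ddx3y*, genes of the Y chromosome, against 76.8 to 94.9 CPM in the other 6 kidneys, which include every mutant. *Xist*, made from the inactive X chromosome of female cells, was at 260.5 and 297.8 CPM in controls 3 and 4. It was at no more than 0.494 CPM in the other 6 kidneys. Controls 3 and 4 are called controls without Y-linked reads below. They are not a group of the study, and no mutant matched them. Of the targeted genes, *Sik3* was lower in mutants by 0.67 on the log2 scale (edgeR quasi-likelihood test, FDR 0.0697), at 33.7 to 43.1 CPM against 58.6 to 66.5 CPM. *Sik2* was lower by 0.44 (FDR 0.794), while *Sik1* was not lower in mutants (log2 fold change 0.31, FDR 0.601). Proximal tubule markers, from *Slc34a1* to *Aqp1*, were all detected and summed to 8094.3 to 11823.9 CPM per kidney. Of 9 adrenal markers, *Star* was at 1.52 to 3.5 CPM and *Akr1b7* at 0.803 to 2.38 CPM. The other 7, *Nr5a1*, *Mc2r*, *Hsd3b1*, *Th*, *Dbh*, *Pnmt* and *Chga*, were at no more than 0.385 CPM, and the adrenal enzymes *Cyp11a1*, *Cyp11b1*, *Cyp11b2* and *Cyp21a1* had a mean of at most 0.125 counts. At an unadjusted p under 0.05 by genotype were 1 of 7 proximal tubule markers and 0 of 6 other nephron markers. So were 1 of 5 liver markers, 1 of 6 adipose markers and 0 of 3 blood and immune markers tested, beside 6.36% of all genes. The tubule marker was *Slc5a2*, at 315.4 to 320.8 CPM in mutants and 454.5 to 555.2 CPM in controls (log2 fold change −0.67, edgeR FDR 0.0697). The liver marker was *Ttr*, at 359.1 to 499.0 CPM in mutants and 19.8 to 140.9 CPM in controls (2.55, edgeR FDR 0.313). The adipose marker was *Fabp4*, at 70.5 to 105.3 CPM in mutants and 22.3 to 83.7 CPM in controls (edgeR FDR 0.715).

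Levels of different genes were compared in TPM, which corrects for gene length. The 33 members summed to 3739.5 and 3768.4 TPM in the 2 controls with Y-linked reads and to 3342.9 to 4841.0 TPM in the 4 mutants. In control 3 and control 4 they summed to 2119.4 and 1721.9 TPM. *Cyp4b1*, which hydroxylates medium-chain fatty acids and activates some foreign furans, was the most abundant P450 transcript in all 6 kidneys with Y-linked reads, where it made up 36.3% to 47.4% of the sum. In control 3 the first place was taken by *Cyp4a10* with 16.9%, and in control 4 by *Cyp2j5* with 21.3%.

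The mean level over the 8 kidneys ran from 1242.4 TPM for *Cyp4b1* down to 1.04 TPM for *Cyp46a1*. *Cyp2j5*, an arachidonic acid epoxygenase of the proximal tubule, followed at 505.6 TPM and *Cyp2e1*, which oxidises ethanol and small solvents, at 395.5 TPM. *Cyp4a10* stood at 225.4 TPM and *Cyp4a31* at 158.5 TPM, and both belong to the Cyp4a hydroxylases of long-chain fatty acids. *Cyp2a4*, a testosterone hydroxylase, averaged 151.0 TPM. Next in order came *Cyp2d26* at 150.7 TPM, *Cyp2j13* at 125.3 TPM and *Cyp2j11* at 85.7 TPM. The omega-hydroxylase group as a whole held 44.3% to 57.8% of P450 transcripts in 7 kidneys and 36.0% in control 4. The epoxygenases held 17.5% to 29.8%, enzymes of foreign compound metabolism 19.4% to 28.4%, and enzymes of sterols, bile acids, steroids and retinoids 2.98% to 6.31%.

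**Figure D1:**
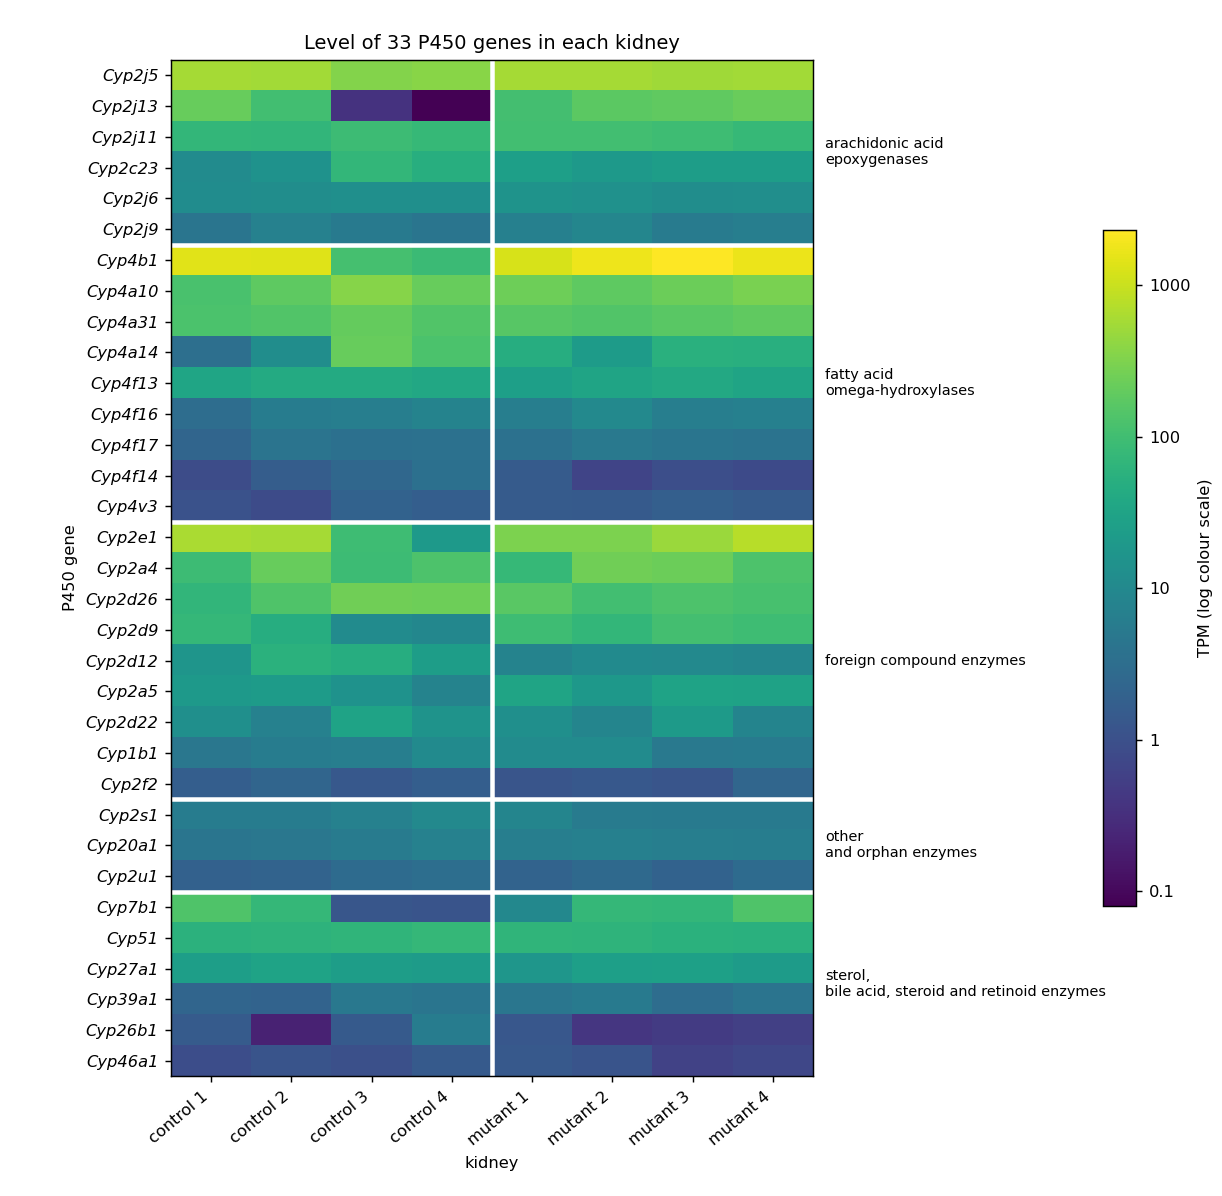
Level in TPM (log colour scale) of 33 P450 genes (rows, ordered by group and by mean level within it) in each of 4 control and 4 SIK mutant kidneys (columns). *Cyp4b1* is brightest in the 6 kidneys with Y-linked reads, while *Cyp2j13* and *Cyp7b1* are darkest in control 3 and control 4, where *Cyp4a14* is brightest.

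Genotype was compared first, to ask which P450 genes change with the loss of SIKs beyond those of vitamin D. No member passed an FDR of 0.05 in the edgeR test over 8 kidneys, where 0% of the 14326 genes tested were called. At an unadjusted p under 0.05 there were 4 of 33 members (12.1%), against 6.36% of all genes, and all 4 were lower in mutants, *Cyp2d12*, *Cyp4f14*, *Cyp51* and *Cyp26b1*. Lower genes at that p made up 3.59% of all genes. Control and mutant values did not overlap for 3 members, again lower in mutants, which is 9.09% of members beside 4.03% of all genes, or 2.39% in that direction. Over the 33 members 17 differences were positive and 16 negative, with a median of 0.00, and the median size was 0.24 on the log2 scale against 0.12 over all genes. The DESeq2 Wald test called *Cyp2d12* alone among the members, with 0.468% of all genes called.

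*Cyp2d12* (chromosome 15, 82555072 to 82560403, GRCm38, plus strand), a member of the Cyp2d family of drug-metabolising enzymes, showed the widest gap between genotypes. Its level was 28.4, 87.5, 68.5 and 32.7 CPM in controls 1 to 4 and 10.6, 14.2, 14.3 and 14.0 CPM in mutants 1 to 4. Every mutant was below every control, and the mutants lay close together whereas the controls spread from 28.4 to 87.5 CPM, with 1 low and 1 high value in each pair with or without Y-linked reads. The means were 54.3 ± 28.5 CPM (SD, n = 4) and 13.3 ± 1.79 CPM (SD, n = 4). The log2 fold change was −2.03 (SE 0.347), 4.09-fold lower in mutants, with an edgeR FDR of 0.163 over all genes and an unadjusted p of 0.000193. It was −2.12 among the 6 kidneys with Y-linked reads (edgeR FDR 0.0851). With the Y-linked term in the fit it was −1.10 without control 2 (edgeR FDR 0.480) and −2.72 without control 1 (edgeR FDR 0.0520). The DESeq2 FDR was 2.72e-06 over 8 kidneys and 0.00495 over 6. A two-sided exact permutation test over the 70 assignments gave p = 0.0286, the smallest it can give. Any gene without overlap between the groups gets this p, so it adds nothing to the lack of overlap.

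*Cyp51*, the lanosterol demethylase of cholesterol synthesis, was the most even of these genes. Controls had 237.4, 238.4, 222.1 and 249.5 CPM and mutants 218.4, 201.8, 182.5 and 201.5 CPM. The groups stood apart by a narrow margin, from 218.4 to 222.1 CPM. The log2 fold change was −0.24 (SE 0.0883, edgeR FDR 0.717), and −0.24 again with the Y-linked covariate. *Cyp51* (chromosome 5, 4081145 to 4104746, minus strand) overlaps *Akap9* on the other strand, which had a mean of 431.8 counts, and the use of strand in counting is not given in the sources used here. The 250 bases before its start in RefSeq (GRCm38.p6, chr5:4104698-4104947, minus strand) hold 1 copy of TGACG (in capitals), the short form of the element bound by CREB, whose coactivators SIKs phosphorylate. TGACG in either orientation was in the same window of 17.9% of 27025 genes and in 4 of the 23 members with a window, *Cyp51*, *Cyp2j5*, *Cyp2j9* and *Cyp20a1*. The whole element, TGACGTCA, was in 1.62% of all windows and in 0 of 23.
*Cyp51*: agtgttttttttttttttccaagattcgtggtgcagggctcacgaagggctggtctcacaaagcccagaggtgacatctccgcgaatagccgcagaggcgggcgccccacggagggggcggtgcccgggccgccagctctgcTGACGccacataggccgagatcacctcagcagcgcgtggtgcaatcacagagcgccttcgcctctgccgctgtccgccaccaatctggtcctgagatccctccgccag

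*Cyp4f14*, whose enzyme inactivates leukotrienes, was scarce, with 13 to 71 counts per kidney. It was at 1.73, 2.96, 4.23 and 6.22 CPM in controls and at 1.68, 1.16, 1.26 and 1.44 CPM in mutants. Control 1 was barely above mutant 1, and the 2 controls without Y-linked reads were the highest. The log2 fold change of −1.45 (SE 0.377, edgeR FDR 0.488) shrank to −0.76 (SE 0.331, FDR 0.395) with the Y-linked covariate. *Cyp26b1*, which clears retinoic acid, had 6.90, 0.889, 5.46 and 22.9 CPM in controls and 4.77, 1.07, 1.74 and 2.31 CPM in mutants. Control 4 set much of its log2 fold change of −1.87 (SE 0.788, edgeR FDR 0.768), which was −0.83 without that kidney and −0.64 with the covariate.

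**Figure D2:**
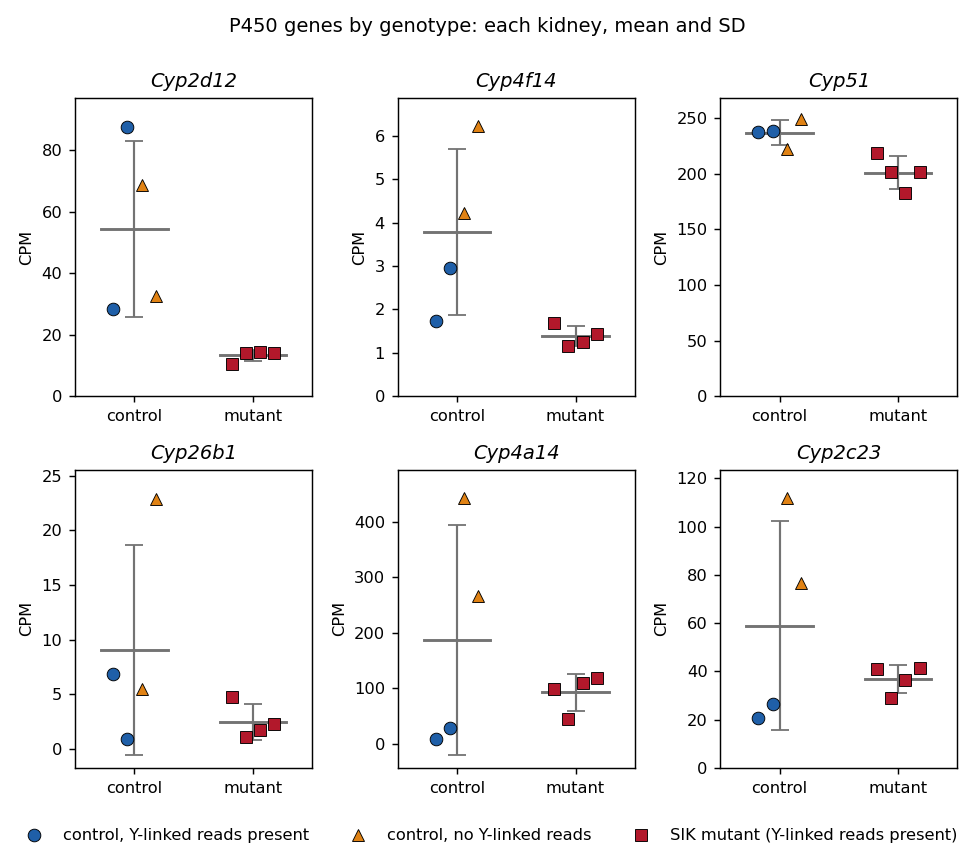
CPM of 6 P450 genes in each control and SIK mutant kidney, with the mean (horizontal line) and SD (bar) of 4 kidneys per group. *Cyp2d12*, *Cyp4f14* and *Cyp51* have no mutant above the lowest control, while for *Cyp4a14* and *Cyp2c23* the mutants lie between the controls with Y-linked reads (circles) and those without (triangles).

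Since 2 controls lacked Y-linked reads, genotype was tested again with a term for these reads. This fit again called 0 members by edgeR, with 0.00698% of all genes called, and put 10 of 33 at an unadjusted p under 0.05 (30.3%), against 12.3% of all genes. Of these, 5 were higher in mutants (*Cyp4a14*, *Cyp2c23*, *Cyp39a1*, *Cyp20a1* and *Cyp4v3*) and 5 lower (*Cyp2d12*, *Cyp4f13*, *Cyp51*, *Cyp27a1* and *Cyp4f14*). Among the 6 kidneys with Y-linked reads edgeR also called 0 members, with 0.143% of all genes called, and 8 were at an unadjusted p under 0.05, against 11.1% of all genes. DESeq2 with the term called *Cyp4a14* as higher and *Cyp2d12* as lower, with 1.4% of all genes called, and called both among the 6 kidneys too, where it called 1.28% of all genes.

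*Cyp4a14* (chromosome 4, 115486200 to 115496142, minus strand), a fatty acid hydroxylase that responds to PPARα, turned direction between these fits. Controls 1 and 2, with Y-linked reads, had 8.63 and 29.2 CPM, and controls 3 and 4 had 442.3 and 266.9 CPM. The mutants had 99.1, 45.4, 109.3 and 118.1 CPM, above the first pair of controls and below the second. Over 8 kidneys the log2 fold change was −1.01 (SE 0.928, edgeR FDR 0.903). With the covariate it was 2.29 (SE 0.514), 4.90-fold higher in mutants, with an edgeR FDR of 0.152 and a DESeq2 FDR of 0.0245. This value rests on 2 controls, and it was 1.67 without control 1 (edgeR FDR 0.696) and 3.43 without control 2 (edgeR FDR 0.239). *Cyp2c23*, the main arachidonic acid epoxygenase of rodent kidney, had the same order of groups. Its level was 20.8 and 26.5 CPM in controls 1 and 2, 111.7 and 76.8 CPM in controls 3 and 4, and 40.9, 29.0, 36.6 and 41.4 CPM in mutants. The log2 fold change went from −0.68 (SE 0.467) to 0.64 (SE 0.198, edgeR FDR 0.264) with the covariate.

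Markers of other tissue and of androgen response also differed between these sets of kidneys, though not in the same order. Of 7 adipose markers, *Adipoq*, *Plin1*, *Cidec*, *Lep*, *Cfd* and *Retn* were at 0 in control 1 and at no more than 1.28 CPM in control 2. The whole list summed to 22.3 and 29.9 CPM in these 2 kidneys, to 67.1 and 219.4 CPM in controls 4 and 3, and to 165.6 to 261.9 CPM in mutants. Androgen-responsive *Kap* was at 29700.9 and 23936.7 CPM in controls 1 and 2, at 12963.6 to 21109.9 CPM in mutants and at 9014.9 and 9408.7 CPM in controls 3 and 4. The same list, with *Odc1*, *Gusb*, *Slco1a1* and *Acsm3*, summed to 25406.9 to 32587.0, 14209.4 to 23069.9 and 9330.7 to 9692.5 CPM in those groups. *Kap* made up most of each sum. *Gusb* had the same order of groups as *Kap*, whereas the mutants overlapped controls 1 and 2 for *Odc1*, *Slco1a1* and *Acsm3*. The part of either in the P450 values was not tested.

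Among the remaining omega-hydroxylases, *Cyp4a10* had 246.6, 352.3, 620.1 and 363.9 CPM in controls and 410.6, 294.0, 390.1 and 554.1 CPM in mutants, and its groups overlapped fully (log2 fold change 0.06, SE 0.277, or 0.46, SE 0.274, with the covariate). *Cyp4a31* ranged from 231.0 to 339.1 CPM in controls and from 209.5 to 356.7 CPM in mutants (−0.02, SE 0.173). *Cyp4f13*, of the same family as *Cyp4f14*, averaged 33.8 ± 4.01 CPM in controls and 29.2 ± 2.43 CPM in mutants (SD, n = 4 each). It differed by −0.21 on the log2 scale (SE 0.106), or by −0.33 (SE 0.111, edgeR FDR 0.298) with the covariate. *Cyp4v3*, the mouse counterpart of the hydroxylase gene of Bietti crystalline dystrophy, averaged 4.93 ± 1.52 and 5.24 ± 0.546 CPM (0.08, SE 0.231). *Cyp4b1* averaged 1316.8 ± 1351.7 CPM in controls and 2646.6 ± 657.9 CPM in mutants, and its log2 fold change of 1.01 (SE 0.848, edgeR FDR 0.895) was 0.09 (SE 0.212) with the covariate. Its control SD exceeded its control mean.

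The epoxygenases included the steadiest members. *Cyp2j11* had 133.7, 122.3, 141.9 and 122.8 CPM in controls and 158.2, 152.1, 142.2 and 133.1 CPM in mutants, with a log2 fold change of 0.17 (SE 0.0905, edgeR FDR 0.803). Mutant 4 lay within the control range. *Cyp2j6* stayed between 36.8 and 47.4 CPM over all 8 kidneys. For *Cyp2j5* the log2 fold change of 0.15 (SE 0.227) became −0.23 (SE 0.105, edgeR FDR 0.411) with the covariate, and for *Cyp2j13* 0.87 (SE 1.42) became −0.12 (SE 0.324).

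Enzymes of foreign compound metabolism varied between mice of a genotype. *Cyp2a4* ranged from 127.2 to 341.4 CPM in controls and from 104.9 to 329.7 CPM in mutants (log2 fold change 0.22, SE 0.388). *Cyp2a5*, a coumarin hydroxylase, had 40.8, 42.8, 24.2 and 13.0 CPM in controls and 29.4 to 54.1 CPM in mutants (0.63, SE 0.342, edgeR FDR 0.803). *Cyp2e1* averaged 557.0 ± 550.7 and 695.2 ± 373.3 CPM (0.32, SE 0.877, or −0.57, SE 0.540, with the covariate). Mutants spread from 423.9 to 1219.5 CPM, which includes both controls with Y-linked reads. *Cyp2d9*, another testosterone hydroxylase, averaged 52.4 ± 48.7 and 120.8 ± 20.9 CPM (1.21, SE 0.627, or 0.39, SE 0.210), and *Cyp2d26* 241.7 ± 105.6 and 174.7 ± 36.2 CPM (−0.47, SE 0.314, or 0.15, SE 0.246). *Cyp2s1*, a P450 of tissues outside the liver, averaged 18.3 ± 3.64 and 14.9 ± 3.54 CPM (−0.29, SE 0.187). Of the sterol enzymes, *Cyp7b1*, the oxysterol hydroxylase, averaged 112.8 ± 140.6 and 132.6 ± 101.9 CPM (0.24, SE 1.28), and *Cyp46a1*, the cholesterol hydroxylase of neurons, 1.62 ± 0.231 and 1.05 ± 0.396 CPM (−0.61, SE 0.313, edgeR FDR 0.794).

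**Figure D3:**
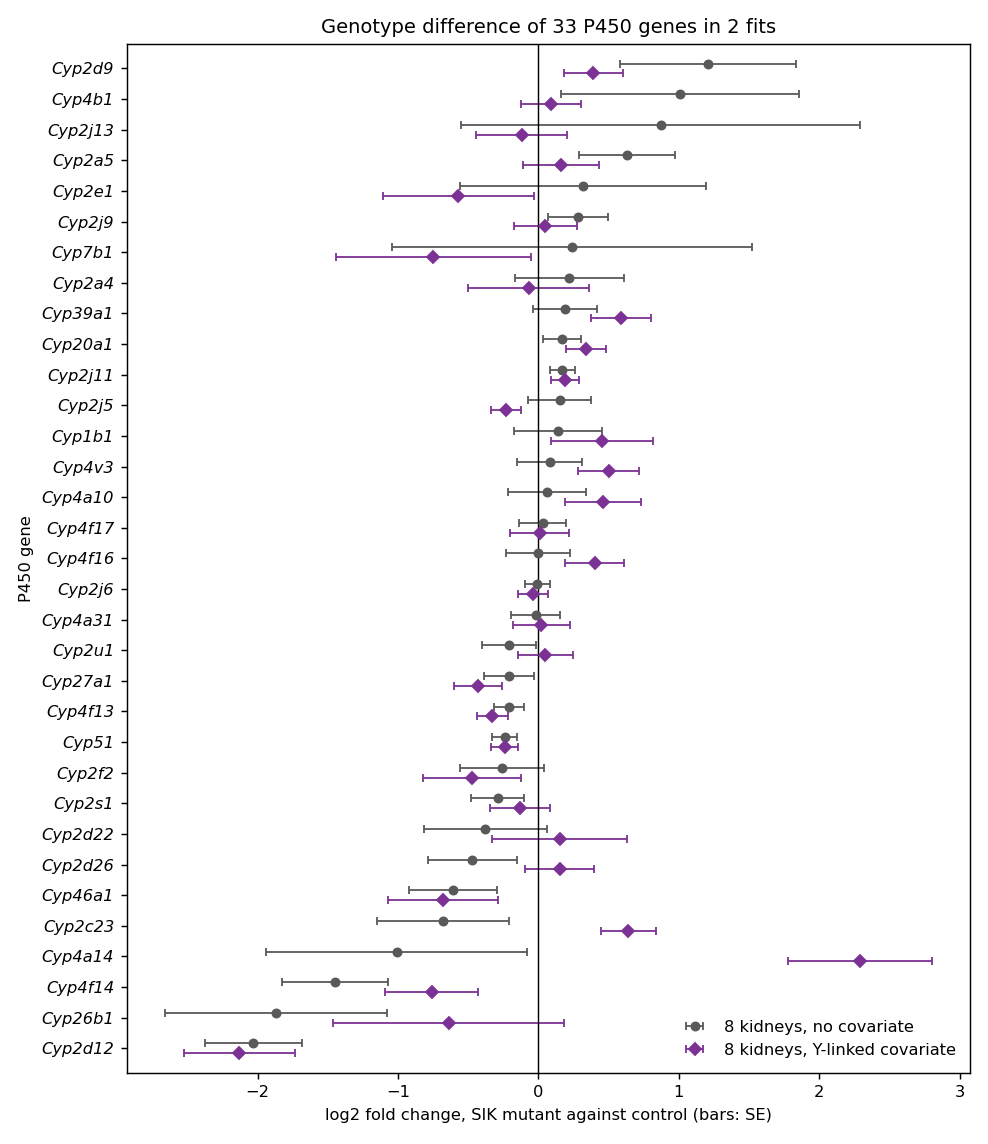
Log2 fold change (SIK mutant against control, bars show SE) of 33 P450 genes in the fit of 8 kidneys without a covariate (circles) and with a term for Y-linked reads (diamonds). *Cyp2d12* lies at −2.03 and −2.13, whereas *Cyp4a14* moves from −1.01 to 2.29 and *Cyp2c23* from −0.68 to 0.64.

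The second comparison set the 2 controls without Y-linked reads against the other 6 kidneys, with genotype in the fit. Here 8 of 33 members passed an edgeR FDR of 0.05 (24.2%), beside 8.26% of the 14326 genes. Lower without Y-linked reads were 6 members (18.2% beside 5.09% of all genes), *Cyp2j13*, *Cyp7b1*, *Cyp4b1*, *Cyp2e1*, *Cyp2d9* and *Cyp2j5*. Higher were *Cyp2c23* and *Cyp4a14* (6.06% beside 3.18%). At an unadjusted p under 0.05 there were 16 members (48.5% beside 25.3%), 8 in each direction beside 12% higher and 13.3% lower of all genes. Values of the 2 and the 6 kidneys did not overlap for 12 members (36.4% beside 23.8%). The median size of the difference was 0.70 on the log2 scale, against 0.25 over all genes. Only 2 kidneys lacked these reads, so the sex marked by *Xist* and Y-linked reads cannot be told apart from any other property these 2 mice share. In whole kidney, fewer cells of a type and less RNA per cell cannot be told apart.

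Among the called genes *Cyp2j13* (chromosome 4, 96027534 to 96077546, minus strand) had the widest gap. It had 529.1 and 268.7 CPM in controls 1 and 2 and 219.9, 344.3, 388.9 and 510.6 CPM in mutants, but 0.704 and 0.263 CPM in controls 3 and 4. The last 2 values rest on 8 and 3 counts, so the gene was at the edge of detection there. The pooled level of 0.482 CPM has an exact 95% Poisson interval of 0.241 to 0.862, for counting error only. The fitted log2 difference was −9.66 (SE 0.652, edgeR FDR 5.94e-05), a value that depends on how the fit treats such low counts.

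*Cyp7b1* (chromosome 3, 18071950 to 18243338, minus strand) was at 295.3 and 151.5 CPM in controls 1 and 2 and at 2.20 and 2.01 CPM in controls 3 and 4. Mutants had 16.8, 124.5, 123.9 and 265.3 CPM, so that mutant 1 stood below the other kidneys with Y-linked reads while above the pair without. The log2 difference was −6.72 (SE 1.18, edgeR FDR 0.00987). The call was lost when control 1, control 3 or control 4 was left out, where the edgeR FDR was 0.0529, 0.0818 and 0.0840 and the log2 difference −6.16, −6.78 and −6.65.

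*Cyp4b1* (chromosome 4, 115624725 to 115647723, minus strand) had 2585.6 and 2384.8 CPM in controls 1 and 2, 1819.1, 2540.1, 3401.8 and 2825.6 CPM in mutants, and 165.2 and 131.7 CPM in controls 3 and 4. The gap between the lowest of the 6 and the highest of the 2 was larger than the spread within either. The log2 difference was −4.07 (SE 0.277, edgeR FDR 6.13e-05), 16.7-fold lower. *Cyp2e1* (chromosome 7, 140763739 to 140774987, plus strand) had 1088.0 and 973.4 CPM in controls 1 and 2 and 137.6 and 29.2 CPM in controls 3 and 4, with mutants at 431.6, 423.9, 705.7 and 1219.5 CPM. The pair without Y-linked reads was itself split, and the log2 difference of −3.63 (SE 0.709, edgeR FDR 0.0152) lost its call without control 1 (−3.55, edgeR FDR 0.0738) or without control 4 (−2.90, edgeR FDR 0.0534).

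*Cyp2d9* (chromosome 15, 82433437 to 82456845, plus strand) fell into the same order, in TPM with 73.3 and 47.5 in controls 1 and 2, 11.5 and 9.23 in controls 3 and 4, and 95.9, 72.4, 105.8 and 95.7 in mutants. The log2 difference was −2.84 (SE 0.270, edgeR FDR 0.000494). *Cyp2j5* (chromosome 4, 96628773 to 96664154, minus strand) was the mildest of the 6. It had 1326.8 and 1232.7 CPM in controls 1 and 2, 652.8 and 717.2 CPM in controls 3 and 4, and 1084.5, 1057.6, 1002.6 and 1211.3 CPM in mutants, a log2 difference of −0.90 (SE 0.123, edgeR FDR 0.00324), 1.87-fold lower.

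For 5 of these 6 genes RefSeq gave the sequence before the start (GRCm38.p6), which is shown because the genes moved together in this comparison. Each run is the 250 bases before the RefSeq start, read toward the gene. That start lies inside the GENCODE gene, by 2 bases for *Cyp4b1*, 6 for *Cyp2j13*, 35 for *Cyp2j5*, 80 for *Cyp2e1* and 18940 for *Cyp2d9*, whose window is therefore far from the GENCODE start. Capitals mark AGAACA or its complement TGTTCT, a short motif of steroid hormone receptors, and TGACG. The windows are chr4:115647722-115647971 for *Cyp4b1*, chr4:96077541-96077790 for *Cyp2j13* and chr4:96664120-96664369 for *Cyp2j5*, all on the minus strand, and chr7:140763569-140763818 for *Cyp2e1* and chr15:82452127-82452376 for *Cyp2d9*, both on the plus strand.
*Cyp4b1*: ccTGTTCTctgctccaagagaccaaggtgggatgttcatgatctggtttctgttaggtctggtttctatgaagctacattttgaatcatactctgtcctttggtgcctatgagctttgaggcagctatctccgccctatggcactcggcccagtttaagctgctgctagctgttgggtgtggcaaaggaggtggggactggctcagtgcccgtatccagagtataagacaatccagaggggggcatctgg
*Cyp2j13*: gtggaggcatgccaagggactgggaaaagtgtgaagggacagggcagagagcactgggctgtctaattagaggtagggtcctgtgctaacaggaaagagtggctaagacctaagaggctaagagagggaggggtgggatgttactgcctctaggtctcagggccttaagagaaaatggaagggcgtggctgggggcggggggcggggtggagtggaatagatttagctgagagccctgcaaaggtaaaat
*Cyp2e1*: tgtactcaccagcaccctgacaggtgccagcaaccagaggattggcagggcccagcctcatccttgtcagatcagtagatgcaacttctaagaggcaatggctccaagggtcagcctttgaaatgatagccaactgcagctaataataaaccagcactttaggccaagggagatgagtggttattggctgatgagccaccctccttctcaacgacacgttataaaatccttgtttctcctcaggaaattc
*Cyp2d9*: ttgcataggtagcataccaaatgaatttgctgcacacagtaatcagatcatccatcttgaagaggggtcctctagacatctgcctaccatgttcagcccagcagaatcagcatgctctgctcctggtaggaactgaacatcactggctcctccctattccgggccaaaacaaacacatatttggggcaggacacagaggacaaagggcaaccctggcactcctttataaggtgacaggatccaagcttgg
*Cyp2j5*: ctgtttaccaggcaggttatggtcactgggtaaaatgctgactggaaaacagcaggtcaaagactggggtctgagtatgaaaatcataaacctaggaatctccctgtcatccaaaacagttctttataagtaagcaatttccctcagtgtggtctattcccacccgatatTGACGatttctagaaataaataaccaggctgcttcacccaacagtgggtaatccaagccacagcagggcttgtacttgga

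AGAACA or its complement was in 1 of these 5 windows, that of *Cyp4b1*, in its reverse orientation starting at −248. Over 27025 genes 16.2% of windows hold it, as do 3 of the 23 members with a window (*Cyp4b1*, *Cyp2d26* and *Cyp2j6*). AGGTCA on either strand, a motif of other nuclear receptors that is not in capitals, was in the windows of *Cyp2j5* and *Cyp2f2*, beside 13.8% of all windows. *Cyp2j5* also held TGACG, at −80. These are matches of letters within 250 bases and say nothing of more distant elements.

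**Figure D4:**
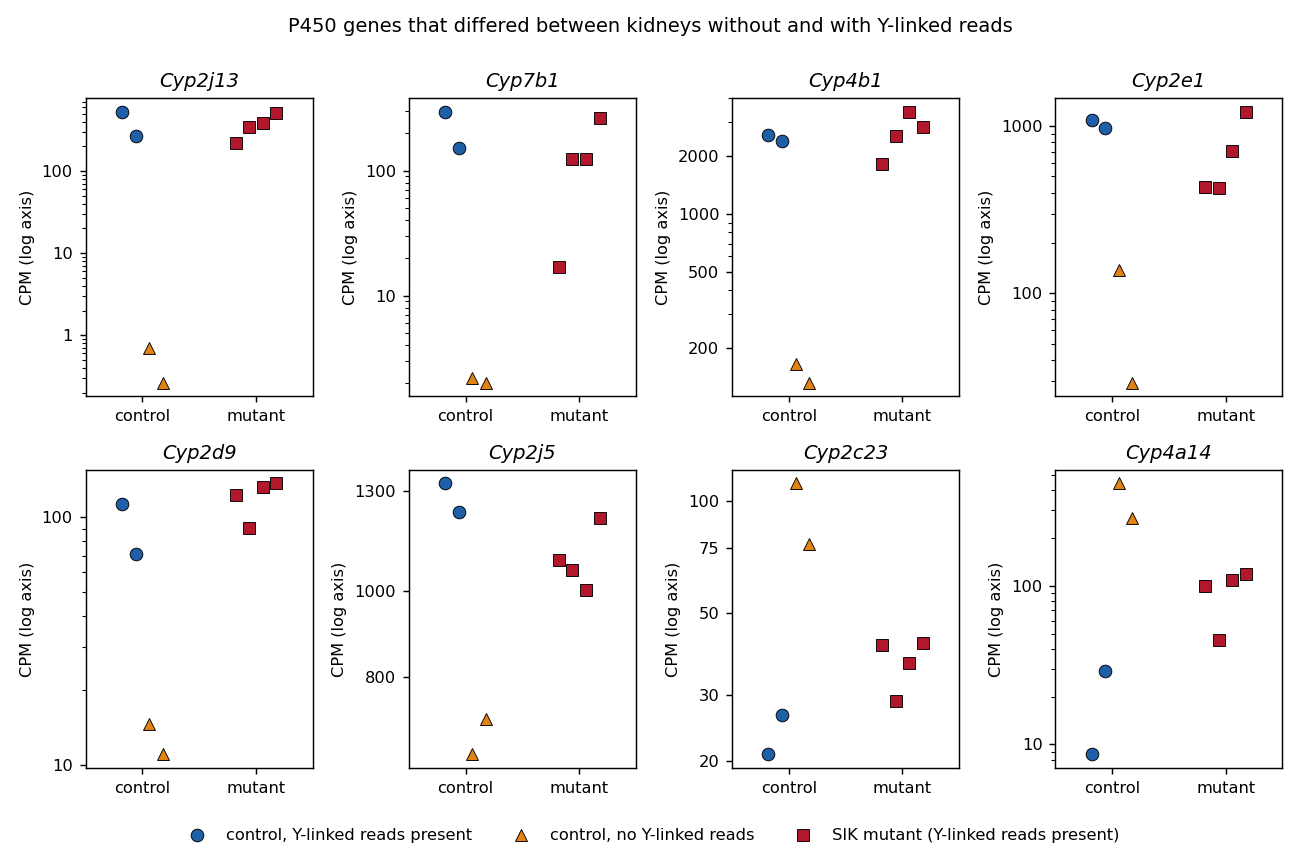
CPM (log axes, each panel on its own scale) in every kidney of the 8 P450 genes called between kidneys without and with Y-linked reads. In the first 6 panels the 2 controls without Y-linked reads (triangles) lie below all other kidneys, and in the panels of *Cyp2c23* and *Cyp4a14* they lie above them.

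*Cyp2c23* (chromosome 19, 44005022 to 44029208, minus strand) and *Cyp4a14* ran the other way. The log2 difference was 1.99 (SE 0.223, edgeR FDR 0.00117) for *Cyp2c23*, 3.98-fold higher without Y-linked reads, and 4.22 (SE 0.586, edgeR FDR 0.00342) for *Cyp4a14*. With no genotype term in the fit, where the mutants join controls 1 and 2, *Cyp4a14* was at 2.37 and no longer called. Just outside the threshold stood *Cyp2d26*, at 332.8 and 319.7 CPM in controls 3 and 4 against 108.5 to 219.6 CPM in the other 6 kidneys (log2 difference 1.05, edgeR FDR 0.0511). *Cyp2a5* also did not overlap, at 24.2 and 13.0 CPM against 29.4 to 54.1 CPM (−1.17, edgeR FDR 0.0544). *Cyp4f14* had a log2 difference of 1.15 (FDR 0.0755), *Cyp4v3* of 0.73 (unadjusted p = 0.0143) and *Cyp4a10* of 0.72 (FDR 0.188). *Cyp26b1*, at 1.86, had an SE of 0.871 (FDR 0.217).

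The remaining members described singly were not called here, and for several the SE was larger than the difference. *Cyp51* differed by −0.01 (SE 0.111), *Cyp2j11* by 0.05 (SE 0.117), *Cyp4a31* by 0.08 (SE 0.236) and *Cyp2d12* by −0.20 (SE 0.454), all on the log2 scale. *Cyp2a4* was at −0.67 (SE 0.503), *Cyp4f13* at −0.24 (unadjusted p = 0.0945), *Cyp2s1* at 0.31 (SE 0.242) and *Cyp46a1* at −0.15 (SE 0.437). By group, 3 of 6 epoxygenases, 2 of 9 omega-hydroxylases, 2 of 9 foreign compound enzymes, 1 of 6 sterol, bile acid, steroid and retinoid enzymes and 0 of 3 other and orphan enzymes were called by edgeR, beside 8.26% of all genes. In the last group 0 were at an unadjusted p under 0.05.

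Other transcripts moved with this comparison. All 5 androgen-responsive kidney genes were called lower without Y-linked reads, beside 5.09% of all genes. *Gusb* was at 19.0 and 20.5 CPM against 25.6 to 39.8 CPM in the other 6 kidneys. *Kap* was at −1.54 on the log2 scale (edgeR FDR 0.00476), *Acsm3* at −7.24 (edgeR FDR 5.52e-05) and *Slco1a1* at 0 counts in both kidneys. The 7 proximal tubule markers summed to 8094.3 and 8615.9 CPM in the controls without Y-linked reads and to 11654.7 and 11823.9 CPM in those with them. Mutants had 8350.1 to 9978.2 CPM. Of the 7, 2 were called lower, *Slc22a6* (−1.77) and *Slc7a13* (−7.84), beside 5.09% of all genes. *Slc34a1*, the most abundant, was at −0.57 (edgeR FDR 0.0509). The rest were not lower as a set, with *Lrp2* and *Cubn* at 0.22 each, *Aqp1* at 0.04 and *Slc5a2* at −0.01. All 6 adipose markers tested were called higher without Y-linked reads in the fit with genotype, beside 3.18% of all genes. That difference is set by the controls alone, since no mutant lacked these reads. The adipose list summed to 67.1 and 219.4 CPM in the controls without Y-linked reads and to 22.3 and 29.9 CPM in those with them. Mutants had 165.6 to 261.9 CPM, so adipose transcripts did not separate the kidneys without Y-linked reads from all others. The part of these in the P450 values was not tested.

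Members on 1 chromosome lay in 5 clusters of neighbours less than 1 Mb apart. On chromosome 4, *Cyp4a14*, *Cyp4a10*, *Cyp4a31* and *Cyp4b1* lie in that order within 162 kb, and the outer genes moved in opposite directions without Y-linked reads, 4.22 and −4.07, with 0.72 and 0.08 for the inner ones. The Cyp2j cluster of 637 kb on the same chromosome has *Cyp2j13* and *Cyp2j5* at its ends, both called lower, and *Cyp2j11*, *Cyp2j6* and *Cyp2j9* between them at 0.05, −0.07 and −0.49. In the Cyp2d cluster of 424 kb on chromosome 15 *Cyp2d9* was called lower and *Cyp2d26* was at 1.05, and *Cyp2d12*, which lies between these genes, was at −0.20 here and at −2.03 by genotype. The Cyp4f cluster on chromosome 17 and the cluster of *Cyp2s1*, *Cyp2a4*, *Cyp2a5* and *Cyp2f2* on chromosome 7 had 0 called members. Copies in such clusters share sequence, and reads may be split between them, although RSEM's own posterior SD was at most 0.911% of the count for every member.

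The 11 members not described singly were at 1.65 to 24.5 TPM on average. Their genotype differences ran from −0.38 to 0.28 on the log2 scale, with a lowest unadjusted p of 0.221. With the Y-linked covariate these differences ran from −0.47 to 0.59. In that fit 3 of 11 were at an unadjusted p under 0.05, *Cyp39a1*, *Cyp20a1* and *Cyp27a1*, beside 12.3% of all genes. Without against with Y-linked reads they ran from −0.49 to 0.92, with a lowest edgeR FDR of 0.103. At an unadjusted p under 0.05 were 3 of 11, near the share of all genes, 25.3%. The 11 members include *Cyp27a1*, the mitochondrial sterol hydroxylase, *Cyp39a1*, an oxysterol hydroxylase, and *Cyp1b1*, a target of the aryl hydrocarbon receptor. *Cyp2f2* overlaps the antisense gene *Gm15883*, which had a mean of 149.1 counts against 18 to 38 for *Cyp2f2*, so its values are uncertain.

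The machinery on which P450 enzymes depend was read from a list of 17 genes of electron transfer and heme synthesis, all of which were tested. By genotype edgeR called 0, and 1 of 17 was at an unadjusted p under 0.05, no more than the share of all genes, 6.36%. That gene was *Ppox*, an enzyme of heme synthesis, at −0.22 on the log2 scale, or −0.12 with the Y-linked covariate. *Por*, the P450 reductase, had 228.1 to 275.7 CPM in controls and 202.5 to 260.5 CPM in mutants (−0.16). Without Y-linked reads 7 of 17 were called by edgeR, beside 8.26% of all genes. Among those lower were *Cyb5a* (−1.09) and *Cyb5r3* (−0.74), which carry electrons to P450 enzymes by way of cytochrome b5, *Cpox* (−1.20) and *Fech* (−0.40), which make heme, and *Hmox1* (−0.88), which breaks it down. Higher was *Pgrmc1* (0.42), a heme-binding partner of P450 enzymes.

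Of 19 transcription factors known to act on P450 genes edgeR called 0 by genotype. At an unadjusted p under 0.05 was 1 of 19, no more than the share of all genes, 6.36%. It was *Esr1*, the estrogen receptor, at 7.35 to 11.6 CPM in controls and 12.4 to 14.9 CPM in mutants. Its log2 fold change was 0.56 (edgeR unadjusted p = 0.00429), or 0.35 with the Y-linked covariate. Its lowest values, 8.37 and 7.35 CPM, were those of controls 3 and 4. Control and mutant values did not overlap for *Esr1* and for *Nr3c1* (0.14), where 4.03% of all genes had no overlap. *Ppara*, which drives Cyp4a genes, was at 8.42 to 12.6 CPM and 11.7 to 18.5 CPM (0.38). Without Y-linked reads *Nr1i2*, the pregnane X receptor, was called higher (1.08) and *Nr1h4*, the bile acid receptor, lower (−1.01). Of the epoxide hydrolases, *Ephx2*, which removes arachidonic acid epoxides, was lower without Y-linked reads (−1.35, edgeR FDR 0.00106). Between genotypes it differed by 0.08, or by −0.45 (edgeR unadjusted p = 0.00486) with the Y-linked covariate. It was at 338.9 and 271.0 CPM in controls 1 and 2, 126.4 and 112.7 CPM in controls 3 and 4 and 200.8 to 251.2 CPM in mutants. *Ephx1* went the other way, from 0.09 to 0.46 (edgeR unadjusted p = 0.042) with the covariate.

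The vitamin D enzymes, which are not members, were read in the same fit. *Cyp27b1*, which makes the hormone, was at 5.37 to 15.8 CPM in controls and 16.9 to 34.2 CPM in mutants (log2 fold change 1.41, unadjusted p = 0.00176). *Cyp24a1*, which degrades it, was at 10.8 to 106.5 CPM and 138.4 to 513.4 CPM (2.69, unadjusted p = 0.00287). Neither passed the edgeR FDR over all genes, and both kept their direction with the Y-linked covariate, at 1.38 and 1.98. The paper, by its own analysis of RNA-Seq, counts *Cyp27b1* among the upregulated genes of SIK mutants. It also reports higher *Cyp27b1* and *Cyp24a1* by RT-qPCR.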

How the data were processed

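RNA-Seq was measured in whole kidneys of 4 control and 4 SIK mutant mice. The submitters' processing notes name FastQC, STAR 2.7.2b, RSEM 1.3.0, DESeq2 and mm10, and strand use is not given in the sources used here. The deposited files hold RSEM expected counts per gene, with posterior mean counts and their standard deviations, and the deposited TPM values are scaled for gene length and library size. Multi-mapped reads are shared out by RSEM, so near-identical P450 copies are less certain.

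Expected counts were rounded. edgeR 4.0.16 in R 4.3.3 (TMM, filterByExpr, quasi-likelihood F test, Benjamini-Hochberg FDR over 14326 genes, threshold 0.05) compared genotypes over 8 kidneys, and tested a term for Y-linked reads (summed CPM of 4 genes under 1) beside genotype. CPM uses TMM-scaled library sizes, and fold changes come from the fit. Single genes had a two-sided exact permutation test of CPM. limma 3.58.1, DESeq2 1.42.0 and scipy 1.17.1 (Python 3.11.15) served the alternatives and intervals. Of the alternatives, DESeq2 with the Y-linked term or on 6 kidneys, and leaving out kidneys with that term, were chosen after seeing the data. The code was tested on simulated data.

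Of 55401 gene IDs, 55141 matched GENCODE M21 without version. Members and lists were chosen with earlier results of these data known. Members described singly were the 12 with the highest mean TPM, the 10 with the lowest genotype p, the 12 with the lowest p for the Y-linked term and all called or with no overlap between control and mutant CPM, 22 in all. Labels do not name litters or batches, so p-values measure the spread between these samples. Counts near 3 per library limit detection, and intervals cover counting error only. Values of some genes in the lists are not reported here.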

Additional observations from a re-analysis of the deposited data

Results flagged for a closer look

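Among 44 groups of 4 kidneys (22 members in controls and in mutants), 3 held a kidney that stood apart from the other 3 by Dixon's criterion at 95%, which divides its distance from the nearest value by the whole range. Chance flags about 1 in 20 groups, or 2.2 of 44. *Cyp2d12* in mutant 1 was at 10.6 CPM, with the other mutants at 14.0 to 14.3 CPM, a gap of 0.897 of the range. *Cyp2a5* in mutant 2 was at 29.4 CPM, with the others at up to 54.1 CPM (0.834 of the range). *Cyp2s1* in control 4 was at 23.6 CPM, with the other controls at 15.6 to 16.9 CPM (0.833 of the range).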

How the results depend on the processing

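Between genotypes edgeR called 0 members in the fit reported, and 0 with RLE or upper-quartile factors, limma, a stricter filter or any 1 kidney left out. DESeq2 called 1 and edgeR without the filter on low counts called 1, *Cyp2d12* in both (edgeR FDR 0.0405). DESeq2 called 2 with the Y-linked covariate and 2 on the 6 kidneys with Y-linked reads. The FDR of *Cyp2d12* ranged from 2.72e-06 to 0.658 over 28 alternatives, with log2 fold changes of −2.72 to −1.10. Of the 22 members described singly, 8 kept their direction between genotypes in every alternative and 14 reversed at least once, and for the Y-linked term 15 kept it and 7 reversed. The Y-linked term called 8 to 10 members under other settings of normalization, tool, filter or samples, and 6 to 9 with 1 kidney left out. Without control 1 or without control 4 it called 6, having lost *Cyp2e1* and *Cyp7b1*, and without control 3 *Cyp7b1* was lost. *Cyp7b1* was also lost with limma-voom, at −6.62 (FDR 0.119), and *Cyp4a14* with no genotype term or with the replicate block. With 4 controls alone *Cyp2j13* was removed by the filter and has no value. The cause of these changes was not tested.

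With fewer kidneys the exact permutation test cannot reach 0.05. The difference in CPM was −36.9 for *Cyp51*, −44.7 for *Cyp2d12* and −0.96 for *Cyp4f14* on 6 kidneys, where the smallest possible p is 0.133. With 1 kidney left out it was −41.6 to −29.6, −49.6 to −29.9 and −3.08 to −1.59 in the same order, where the smallest p is 0.0571.

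With limma-voom the genotype log2 fold change reversed to 0.25 for *Cyp4a14*. With limma-trend on log2(TPM + 1) the genotype log2 fold change reversed to 0.12 for *Cyp4a31* and 0.26 for *Cyp4a14*. With limma-trend on log2(TPM + 0.1) the genotype log2 fold change reversed to 0.12 for *Cyp4a31* and 0.34 for *Cyp4a14*. With the Y-linked covariate the genotype log2 fold change reversed to −0.23 for *Cyp2j5*, −0.57 for *Cyp2e1*, 0.02 for *Cyp4a31*, −0.07 for *Cyp2a4*, 0.15 for *Cyp2d26*, −0.12 for *Cyp2j13*, 2.29 for *Cyp4a14*, −0.75 for *Cyp7b1* and 0.64 for *Cyp2c23*. With the 6 kidneys with Y-linked reads the genotype log2 fold change reversed to −0.22 for *Cyp2j5*, −0.56 for *Cyp2e1*, 0.03 for *Cyp4a31*, −0.07 for *Cyp2a4*, 0.16 for *Cyp2d26*, −0.11 for *Cyp2j13*, 2.30 for *Cyp4a14*, −0.75 for *Cyp7b1* and 0.65 for *Cyp2c23*. With the replicate block the genotype log2 fold change reversed to 0.03 for *Cyp4a14*. With the replicate block and the Y-linked covariate together the genotype log2 fold change reversed to −0.21 for *Cyp4b1*, −0.26 for *Cyp2j5*, −1.27 for *Cyp2e1*, −0.30 for *Cyp2a4*, 0.18 for *Cyp2d26*, −0.45 for *Cyp2j13*, 1.98 for *Cyp4a14*, −2.12 for *Cyp7b1*, 0.55 for *Cyp2c23* and −0.08 for *Cyp2a5*. With DESeq2 and that covariate the genotype log2 fold change reversed to −0.23 for *Cyp2j5*, −0.56 for *Cyp2e1*, 0.02 for *Cyp4a31*, −0.07 for *Cyp2a4*, 0.16 for *Cyp2d26*, −0.12 for *Cyp2j13*, 2.30 for *Cyp4a14*, −0.75 for *Cyp7b1* and 0.65 for *Cyp2c23*. With DESeq2 on those 6 kidneys the genotype log2 fold change reversed to −0.23 for *Cyp2j5*, −0.56 for *Cyp2e1*, 0.02 for *Cyp4a31*, −0.07 for *Cyp2a4*, 0.16 for *Cyp2d26*, −0.12 for *Cyp2j13*, 2.30 for *Cyp4a14*, −0.75 for *Cyp7b1* and 0.65 for *Cyp2c23*. With 1 kidney left out, with or without the covariate, genotype log2 fold changes that reversed ranged from −0.12 to 0.74 for *Cyp4a10*, −0.08 to 0.72 for *Cyp4v3*, −0.29 to 0.33 for *Cyp2j5*, −0.99 to 0.87 for *Cyp2e1*, −0.18 to 0.12 for *Cyp4a31*, −1.34 to 1.36 for *Cyp7b1*, −0.54 to 0.61 for *Cyp2a4*, −1.40 to 3.43 for *Cyp4a14*, −0.96 to 0.83 for *Cyp2c23*, −2.41 to 1.47 for *Cyp26b1*, −0.71 to 0.69 for *Cyp2d26*, −0.53 to 2.03 for *Cyp2j13* and −0.05 to 1.56 for *Cyp4b1*. For *Cyp4a14* the range was −1.40 to −0.13 without the covariate and 1.67 to 3.43 with it, and for *Cyp2d12* −2.24 to −1.70 and −2.72 to −1.10.

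With upper-quartile factors the log2 difference for Y-linked reads reversed to 0.05 for *Cyp51*. With limma-trend on log2(TPM + 1) the log2 difference for Y-linked reads reversed to 0.22 for *Cyp51*, 0.06 for *Cyp4f13*, 0.14 for *Cyp2d12* and 0.14 for *Cyp46a1*. With limma-trend on log2(TPM + 0.1) the log2 difference for Y-linked reads reversed to 0.22 for *Cyp51*, 0.06 for *Cyp4f13*, 0.15 for *Cyp2d12* and 0.23 for *Cyp46a1*. With a mean count of at least 50 the log2 difference for Y-linked reads reversed to 0.02 for *Cyp51*. With the replicate block the log2 difference for Y-linked reads reversed to −0.37 for *Cyp4a31*, 0.12 for *Cyp51* and 0.78 for *Cyp46a1*. With no genotype term the log2 difference for Y-linked reads reversed to −0.08 for *Cyp2j11*, 0.14 for *Cyp51*, 0.85 for *Cyp2d12* and 0.28 for *Cyp46a1*. With 1 kidney left out it ranged from −0.33 to 0.05 for *Cyp46a1*, −1.13 to 0.02 for *Cyp2a4*, −0.06 to 0.15 for *Cyp2j11*, −0.83 to 0.83 for *Cyp2d12*, −0.22 to 0.33 for *Cyp4a31* and −0.09 to 0.07 for *Cyp51*.

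Replicate numbers in the labels are not stated to pair the kidneys. The correlation of same-numbered kidneys' deviations was −0.193, 0.043, 0.063 and −0.344, and 1 of 4 controls correlated best with its own number. No mutant shares the controls' split by Y-linked reads, so these correlations cannot decide whether numbers mark pairs. With the replicate block, 0 members were called between genotypes, and 8 for the Y-linked term, with *Cyp1b1* gained and *Cyp4a14* lost. Depth limits *Cyp2j13* in the controls without Y-linked reads (8 and 3 counts) and the members under 100 counts, such as *Cyp46a1*.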
